A study of Mus musculus with 8 samples.

Results

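Interferon-stimulated genes are the genes that cells switch on when they sense interferon. A family of 10 was followed, chosen by name: *Isg15*, *Ifit1*, *Ifit3*, *Oasl2*, *Bst2*, *Ifi35*, *Irf7*, *Irf9*, *Iigp1* and *Igtp*. All 10 were found by symbol among the 25124 genes of the deposited table, and 7 of them reached the mean of 10 normalized counts over the 8 libraries that was required for testing, as did 7512 genes in all. *Isg15*, *Ifit3* and *Bst2*, with means of 2.11, 6.97 and 4.29 normalized counts, did not. The member nearest above the limit was *Irf7* at 11.6 and the nearest below it was *Ifit3*.

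Each library comes from lung cells of C57BL/6 mice that were isolated by flow sorting and are labelled as airway epithelium. STAT3-cKO mice carry a conditional knockout of *Stat3* (here cKO) and STAT3-WT mice are their controls (here WT), and each genotype was given house dust mite (HDM), an allergen, or phosphate-buffered saline (PBS). The 4 groups are cKO HDM, WT HDM, cKO PBS and WT PBS, with 2 libraries each. The driver of the *Stat3* deletion, the cells it acts in, the allergen schedule, and the sex and age of the animals are not stated in the labels. Whether both libraries of a group represent different animals is also not stated, so the spread behind every p-value here is that between libraries and may be technical.

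The libraries are shallow, at 232556 to 593200 reads recovered from the normalized values, and a gene at 0 reads in a library could still hold up to 3 reads, or 1.96 to 4.88 normalized counts. The *Stat3* transcript stood at 76.9 and 92.2 normalized counts in cKO HDM, against 134 and 157 in WT HDM, and at 56.9 and 96.5 in cKO PBS, against 75.8 and 40.9 in WT PBS. The PBS libraries of the 2 genotypes thus overlapped, and the genotype is given as labelled. Epithelial markers (6 of 6 detected in every library) summed to 1230 to 1691 normalized counts, and *Epcam*, the epithelial surface marker, to 99.7 to 179. Both WT HDM libraries stood apart in markers of other cell types. Their 13 endothelial markers summed to 1230 and 1302 normalized counts, against 230 to 377 in the other 6 libraries. Their 6 fibroblast markers summed to 1233 and 1356, against 48.8 to 108 in the others. Their 17 leukocyte markers summed to 84.1 and 433, against 1.53 to 26.0 in the others, where 13 to 16 of the 17 were at 0. Their 6 alveolar type 2 markers summed to 8146 and 12270, against 3699 to 5193. Their 5 ciliated cell markers summed to 1040 and 1287, against 1594 to 2017. The 4 club cell markers were highest in cKO PBS, at 10806 and 7506, against 3692 to 6084 in the libraries of the other groups. The part of these marker differences in the comparisons below was not tested.

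Interferons act through a small number of steps. Type I and type III interferons bring IRF9 together with STAT proteins in a complex that binds the interferon-stimulated response element (ISRE) in front of a gene. Type II interferon (interferon gamma) acts through a different element, the gamma-activated site (GAS). Airway epithelium is known to answer all 3 types, chiefly as a defence against viruses. ISG15 is a ubiquitin-like protein that is joined to other proteins. IFIT1, which binds foreign RNA, and IFIT3 belong to the same family, and OASL2 belongs to the oligoadenylate synthetase family of RNA sensors. BST2 (tetherin) holds budding virus at the cell surface, IFI35 is an interferon-induced leucine zipper protein, and IRF7 and IRF9 are transcription factors of the response itself. IIGP1 and IGTP are immunity-related GTPases, a family that attacks the vacuoles of intracellular parasites and is best known as a target of interferon gamma in mice.

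The DNA in front of the members shows which of them carry these elements. Promoter windows from RefSeq (GRCm38.p6, the assembly also called mm10) were found for 9 of the 10 members, all except *Iigp1*. In the 250 bases before the start, the ISRE core, searched on both strands as GAAA, any 2 bases and GAAA again, was present for 5 of these 9 genes and for 3.46% of all 27025 genes with a window. The GAS, searched as TTC, any 3 bases and GAA, which reads the same on both strands, was present for 2 of the 9 and for 8.13% of all genes. The stretches below show the 5 members with an ISRE core and, for comparison with *Igtp*, 3 further GTPase genes. Capitals mark ISRE core and GAS matches, and each sequence is written 5′ to 3′ on the strand of its gene.
Isg15, chr4:156200865-156200906, minus strand: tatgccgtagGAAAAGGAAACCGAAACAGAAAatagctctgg
Ifit1, chr19:34640775-34640823, plus strand: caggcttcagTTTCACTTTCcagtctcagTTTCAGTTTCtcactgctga
Ifit3, chr19:34583397-34583426, plus strand: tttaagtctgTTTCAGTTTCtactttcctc
Bst2, chr8:71537577-71537618, minus strand: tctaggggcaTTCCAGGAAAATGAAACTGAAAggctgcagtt
Igtp, chr11:58199501-58199541, plus strand: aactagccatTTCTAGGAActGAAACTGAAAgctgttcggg
Irgm2, chr11:58214892-58214932, plus strand: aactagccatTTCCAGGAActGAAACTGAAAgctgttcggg
Tgtp1, chr11:48992304-48992344, minus strand: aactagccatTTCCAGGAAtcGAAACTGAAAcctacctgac
Tgtp2, chr11:49064263-49064303, minus strand: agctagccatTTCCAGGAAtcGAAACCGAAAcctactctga

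*Isg15* has 3 overlapping ISRE cores, the first starting at -78 from the start of the gene. *Ifit1* has 2 on the opposite strand, and *Ifit3* has 2, of which the nearer is shown. In *Bst2* a GAS at -136 runs into 2 overlapping ISRE cores. *Igtp* has a GAS at -45 and, 2 bases after it, an ISRE core at -34. The stretches of *Igtp* and *Irgm2* match at 40 of 41 bases, the difference being T14C (*Igtp* first, counted from 1 at the 5′ end), and those of *Igtp* and *Tgtp1* at 31 of 41. A search chosen after these stretches had been seen, for a GAS followed after 2 bases by an ISRE core on either strand, found it for 5 of the 27025 genes, *Igtp*, *Irgm2*, *Tgtp1*, *Tgtp2* and *Gm12185*. Windows of *Oasl2*, *Irf7*, *Irf9* and *Ifi35* held no match to the ISRE core or the GAS before the start, which says only that these letters are not there.

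All members are protein-coding (GENCODE M21, mm10). *Isg15* lies on chromosome 4 (156199424 to 156200818), *Oasl2* on 5 (114896936 to 114912234), *Irf7* on 7 (141262706 to 141266481), *Bst2* on 8 (71534255 to 71537456) and *Irf9* on 14 (55603571 to 55610030). *Ifit3* (34583531 to 34588731) and *Ifit1* (34640871 to 34650009) are neighbours on chromosome 19, and *Iigp1* lies on chromosome 18. *Igtp* (58199556 to 58207591) and *Ifi35* (101448407 to 101458698) lie on chromosome 11. The annotation of *Igtp* overlaps *Irgm2*, that of *Irf9* overlaps *Rnf31*, that of *Irf7* overlaps *Phrf1* and that of *Ifi35* an antisense gene. Whether counting used strand is not given, so reads of these pairs cannot be assigned with certainty, and *Ifit3* may share reads with its close copy *Ifit3b* (14 reads in all).

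The family was expressed at low levels in every group. Its 10 genes took 60 to 399 reads per library and summed to 290 and 145 normalized counts in cKO HDM, 152 and 164 in WT HDM, 97.6 and 250 in cKO PBS, and 91.1 and 120 in WT PBS. In bulk samples such as these, fewer cells of a type and less RNA per cell cannot be told apart. The 2 sums within a cKO group differed by 2.0-fold under HDM and 2.56-fold under PBS, while the highest and lowest group means were 217 ± 103 in cKO HDM and 106 ± 20.5 in WT PBS (SD, n = 2 each). Per kilobase of annotated exon, *Ifi35* had the highest level, at 19.6 ± 6.96 normalized counts per kb (SD over 8 libraries), and led in 7 of 8 libraries. The other 9 members averaged 2.79 (*Isg15*) to 6.28 (*Igtp*) normalized counts per kb, and their ranges over the libraries overlapped.

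**Figure D1:**
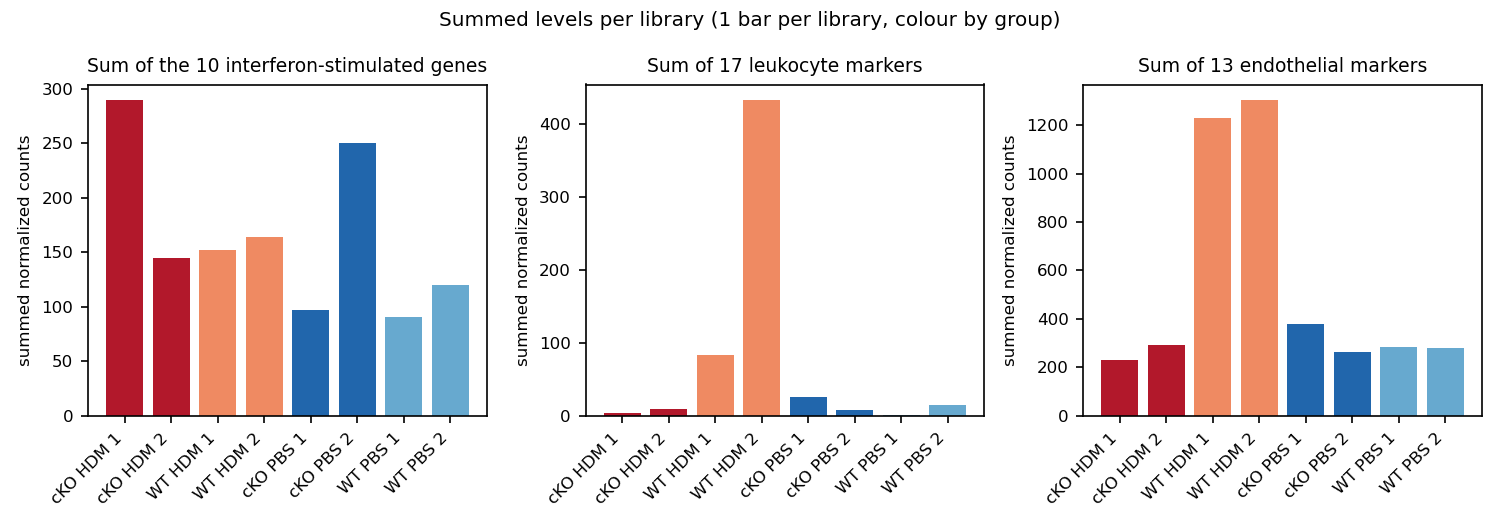
Summed normalized counts per library (y axes) of the 10 interferon-stimulated genes, 17 leukocyte markers and 13 endothelial markers, with 1 bar per library. The interferon-stimulated sum is highest in cKO HDM replicate 1 (290) and cKO PBS replicate 2 (250), where leukocyte markers sum to 4.35 and 7.62, and the marker sums are highest in the WT HDM libraries.

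Within each cKO group most members were higher in the same library. In cKO HDM, 9 of 10 members were higher in replicate 1 than in replicate 2, *Isg15* being the exception, as were 50% of the 7512 tested genes. In cKO PBS, 9 of 10 were higher in replicate 2, with *Isg15* at 0 in both, as were 51.9% of tested genes. The median difference between these libraries over the 7 tested members was 1.12 log2 units in cKO HDM and 0.99 in cKO PBS, against 0.00 and 0.05 over all tested genes. In WT HDM, 5 members were higher in each library, and in WT PBS 6 were higher in replicate 2, 2 were lower and 2 were at 0 in both. Each genotype or treatment difference below is set against this spread.

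Each tested member was also compared with the mean standardized log2 level of the other 6 over the 8 libraries, as a description. Pearson's r was highest for *Ifit1* (0.71, Spearman's rho 0.48) and *Irf7* (0.66, rho 0.36), followed by *Igtp* (0.59, rho 0.59) and *Iigp1* (0.52, rho 0.64). It was lower for *Ifi35* (0.35), *Oasl2* (0.32) and *Irf9* (0.26). Outside the interferon lists, the 6 tested genes with the profile most like the mean of the members were *Igsf11* (r = 0.95), *Ppp1r9b* (0.93), *Esd* (0.89), *Eif3b* (0.89), *Tbc1d16* (0.88) and *Dnttip2* (0.86). These values share 8 libraries and come from ranking 7512 genes, and they carry no test.

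**Figure D2:**
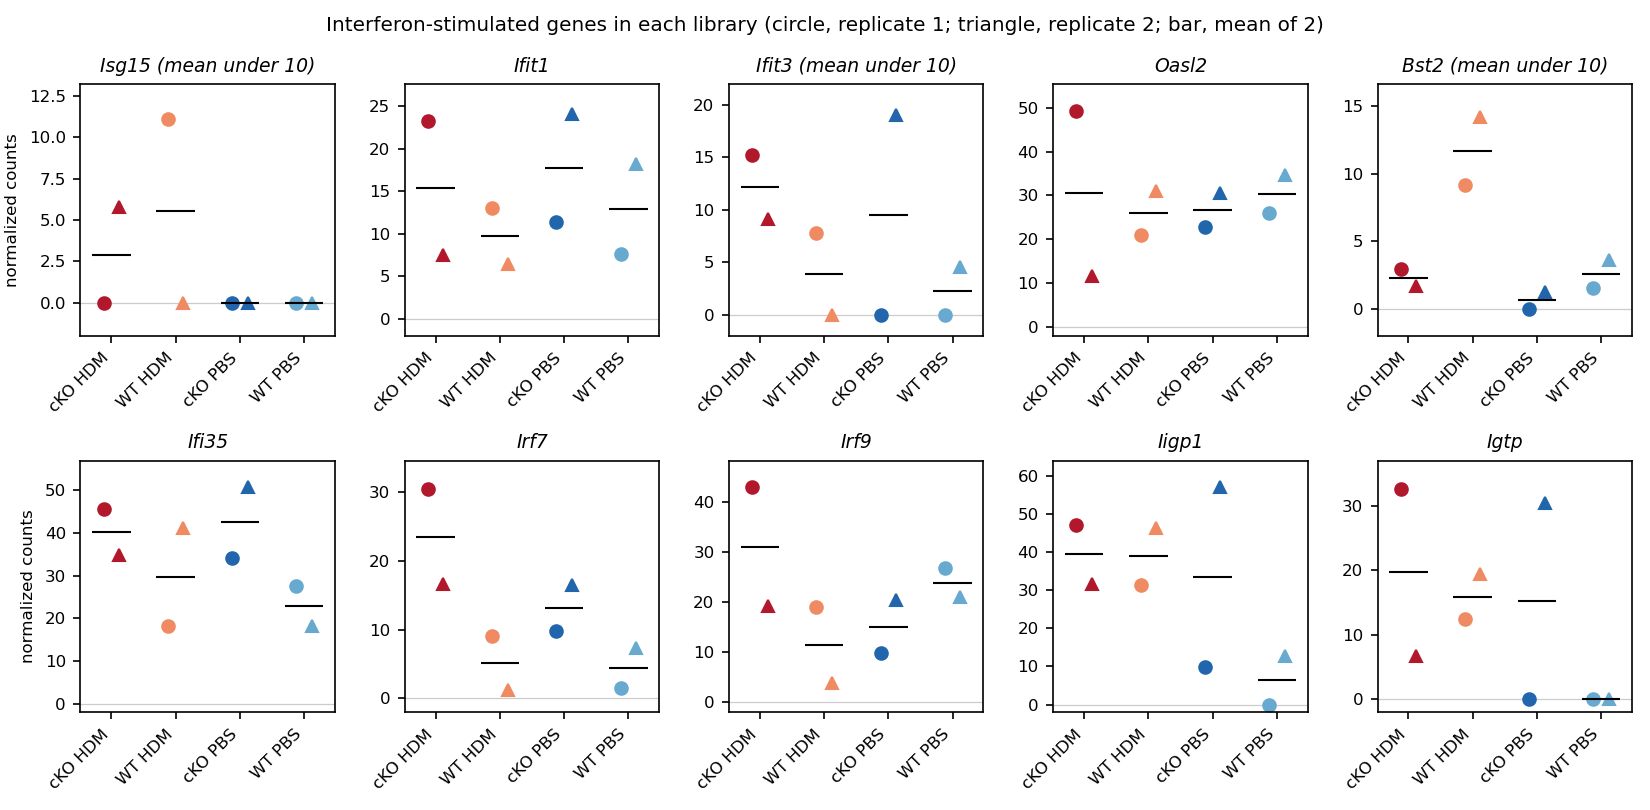
Normalized counts (y axes) of each of the 10 genes in the 4 groups (x axes), with a circle for replicate 1, a triangle for replicate 2 and a bar at the mean. Igtp is above 0 in all 4 HDM libraries and, of the PBS libraries, in cKO PBS replicate 2, whereas Oasl2 and Ifit1 overlap between all groups.

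The GTPases had the largest fitted differences of the family between HDM and PBS in WT, and neither passed the main test. *Iigp1* stood at 47.2 and 31.6 normalized counts in cKO HDM, 31.3 and 46.4 in WT HDM, 9.76 and 57.1 in cKO PBS, and 0 and 12.7 in WT PBS. All 4 HDM libraries were thus above 3 of the 4 PBS libraries, and cKO PBS replicate 2 was the highest of all. *Igtp* stood at 32.7 and 6.64 in cKO HDM, 12.4 and 19.3 in WT HDM, 0 and 30.5 in cKO PBS, and 0 in both WT PBS libraries. All 4 HDM libraries were again above those 3 PBS libraries, which were at 0 reads, and cKO HDM replicate 1 was the highest, followed by cKO PBS replicate 2.

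In WT, the log2 difference of HDM against PBS was 3.40 ± 1.05 for *Iigp1* (limma unadjusted p = 0.00554, adjusted p = 0.257), on the log2(value + 1) scale with its standard error. For *Igtp* it was 4.04 ± 1.75 (limma unadjusted p = 0.0354, adjusted p = 0.51). Against a floor of 3 reads per WT PBS library, the mean of *Igtp* in WT HDM was 6.31-fold higher, and its fitted value depends on the pseudocount. That fold takes the WT HDM mean as exact and leaves out the spread between libraries, so it is not a firm minimum. Neither gene passed an adjusted p under 0.05 with limma or edgeR, and *Igtp* passed with DESeq2 (log2 difference 6.69, adjusted p = 0.0399). *Igtp* had a mean of 0 in WT PBS and reached the mean required for testing through the other groups. A positive value of *Igtp* against WT PBS is thus partly built in by that requirement. The value of *Iigp1* was 1.51 without WT PBS replicate 1 and 5.29 without WT PBS replicate 2. The libraries of WT HDM and WT PBS did not overlap for either gene, as for 21.2% of tested genes in this direction.

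In cKO the same contrast was 0.66 ± 1.05 for *Iigp1*, its 95% interval running from -1.58 to 2.90 (limma adjusted p = 0.9). It was 1.52 ± 1.75 for *Igtp*, its interval running from -2.21 to 5.25 (limma adjusted p = 0.847). The interval of *Igtp* includes its WT value and that of *Iigp1* does not, and the difference between the responses, cKO minus WT, was -2.74 ± 1.49 for *Iigp1* (limma adjusted p = 0.673) and -2.53 ± 2.48 for *Igtp* (limma adjusted p = 0.8). The cKO values depend on which cKO PBS library is kept. Without replicate 2 they were 1.88 and 4.0, and without replicate 1 they were -0.55 and -0.97. Averaged over genotypes, HDM against PBS stood at 2.03 ± 0.74 for *Iigp1* (limma adjusted p = 0.455) and 2.78 ± 1.24 for *Igtp* (limma adjusted p = 0.557).

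Between genotypes under HDM, *Iigp1* differed by 0.02 ± 1.05 and *Igtp* by -0.04 ± 1.75, with 95% intervals of -2.22 to 2.26 and -3.77 to 3.69. Under PBS, cKO against WT was 2.75 ± 1.05 for *Iigp1* (limma unadjusted p = 0.0193, adjusted p = 0.694) and 2.49 ± 1.75 for *Igtp* (limma adjusted p = 0.781), and the libraries of the 2 genotypes overlapped for both. Averaged over treatments, the values were 1.39 ± 0.74 and 1.22 ± 1.24, neither past the threshold. These PBS values rest on single libraries: for *Iigp1* leaving out 1 library gave 0.87 (without WT PBS replicate 1) to 4.64 (without WT PBS replicate 2), and for *Igtp* 0.0 (without cKO PBS replicate 2) to 4.98 (without cKO PBS replicate 1). Leukocyte markers summed to 4.35 and 9.97 normalized counts in cKO HDM, 84.1 and 433 in WT HDM, 26.0 and 7.62 in cKO PBS, and 1.53 and 15.5 in WT PBS. Their part in the levels of *Iigp1* and *Igtp* was not tested.

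Other interferon-inducible GTPases were read next. The list held 15 genes beside the 2 members, 6 of them tested, and 0 passed with limma or edgeR in any of the 7 comparisons. In HDM against PBS in WT their median was 1.75, with 5 of 6 positive, against -0.03 over all tested genes, and in cKO it was 1.28 with 6 of 6 positive, against 0.10. These medians leave out the 9 GTPases not tested. *Ifi47*, *Gbp2*, *Tgtp1* and *Tgtp2* had means under 10 in both PBS groups and were tested because of their HDM libraries. Positive values are thus partly built in by that requirement, and the medians are not read as a response. *Ifi47*, an immunity-related GTPase, stood at 38.5 and 29.9 normalized counts in cKO HDM, 31.3 and 20.6 in WT HDM, 0 and 17.8 in cKO PBS, and 0 and 7.27 in WT PBS. Its 4 HDM libraries were all above its 4 PBS libraries, as for 2.26% of tested genes. Averaged over genotypes it stood at 3.11 ± 0.97 (limma unadjusted p = 0.00589, adjusted p = 0.344), with 3.20 ± 1.37 in WT and 3.01 ± 1.37 in cKO. Leaving out 1 library at a time gave 2.05 to 4.16 in the average and 0.89 to 5.13 in cKO. Both upper values came without cKO PBS replicate 2, which left 1 library in that group.

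*Irgm2*, a regulatory GTPase of the same family, stood at 68.2 and 24.1 in cKO HDM, 24.8 and 14.2 in WT HDM, 9.76 and 47.0 in cKO PBS, and 7.65 and 12.7 in WT PBS. Its highest libraries were those of *Igtp*, with which it shares annotated sequence. Its HDM values were 0.86 ± 0.80 in WT and 0.87 ± 0.80 in cKO, and neither passed. *Gbp2*, a guanylate-binding protein, had another order. It stood at 5.81 and 7.48 in cKO HDM, 32.0 and 41.3 in WT HDM, 0 and 11.4 in cKO PBS, and 0 in both WT PBS libraries. In WT its mean under HDM was 14.6-fold higher than a floor of 3 reads per library, with the same limit as for *Igtp*. Its log2 difference of 5.22 ± 1.70 did not pass with limma (adjusted p = 0.296). The difference passed with DESeq2 (adjusted p = 0.00222) and with limma at a pseudocount of 5 (3.05, adjusted p = 0.044). Those 2 settings passed 134 and 108 of all 7512 tested genes, where the main fit passed 39. Leaving out cKO PBS replicate 1, which is in neither group compared, left the value at 5.22. *Gbp2* was highest in the 2 libraries with the most endothelial, fibroblast and leukocyte markers, whose part in its level was not tested.

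**Figure D3:**
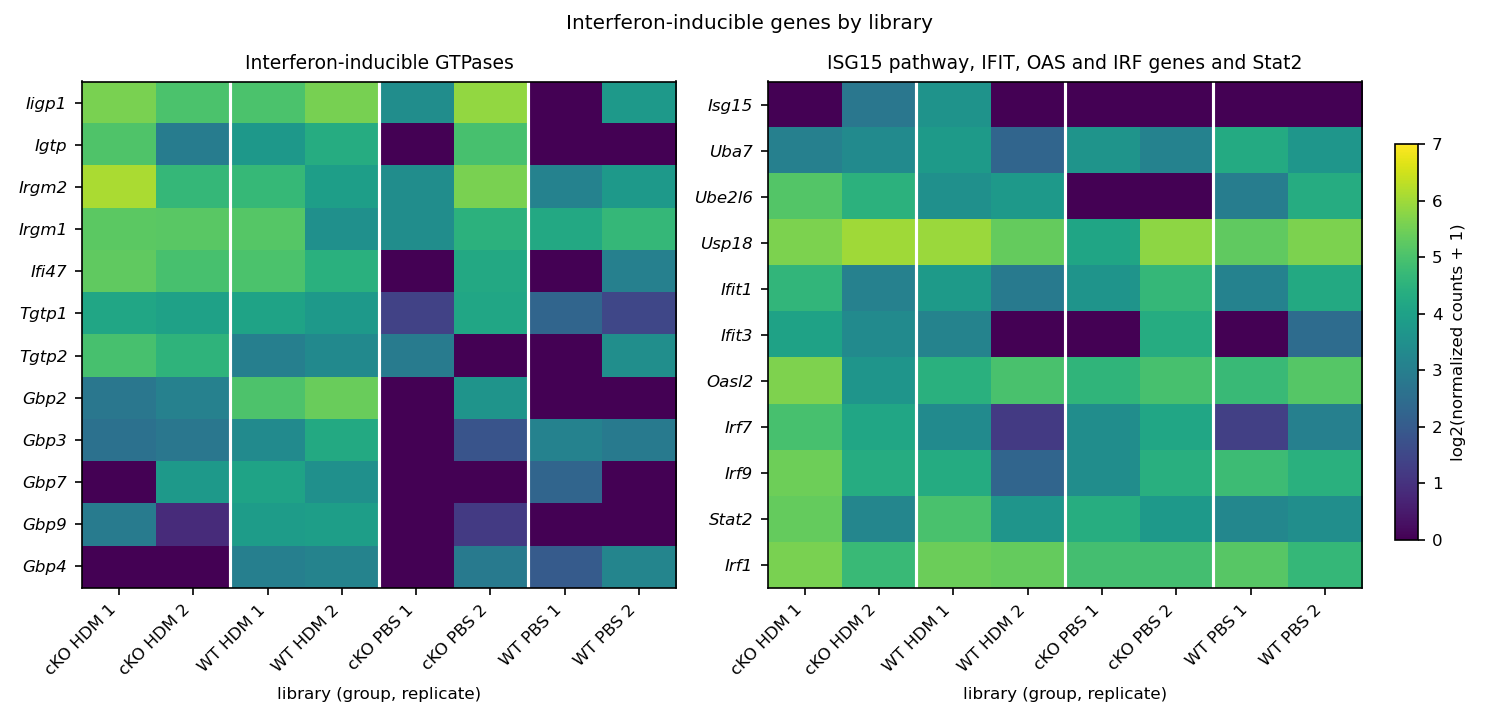
Log2(normalized counts + 1) (colour) of interferon-inducible GTPases (left) and of ISG15 pathway, IFIT, OAS and IRF genes and Stat2 (right) in the 8 libraries (columns, white lines between groups). Igtp, Irgm2, Iigp1 and Ifi47 are brighter in HDM libraries and in cKO PBS replicate 2 than in cKO PBS replicate 1 and WT PBS replicate 1, whereas Gbp2 is brightest in WT HDM.

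The transcription factors of the response were read for both contrasts. *Irf7*, which amplifies interferon production, stood at 30.5 and 16.6 normalized counts in cKO HDM, 9.13 and 1.29 in WT HDM, 9.76 and 16.5 in cKO PBS, and 1.53 and 7.27 in WT PBS. All 4 cKO libraries were above all 4 WT libraries, as for 1.78% of tested genes in this direction. *Irf7* reached the mean required for testing through its cKO libraries, its means in WT being 5.21 under HDM and 4.40 under PBS. A positive cKO value is thus partly built in by that requirement. The log2 difference of cKO against WT averaged over treatments was 1.94 ± 0.85, its 95% interval running from 0.13 to 3.75 (limma unadjusted p = 0.0376, adjusted p = 0.569). It was 2.29 ± 1.20 under HDM (limma adjusted p = 0.576) and 1.58 ± 1.20 under PBS (limma adjusted p = 0.799), and no value passed. In cKO both HDM libraries were just above both PBS libraries, as for 19.0% of tested genes. HDM against PBS stood at 0.07 ± 1.20 in WT, 0.78 ± 1.20 in cKO and 0.43 ± 0.85 averaged, and the interaction at 0.71 ± 1.70. With 1 read in WT HDM replicate 2 and 2 in WT PBS replicate 1, the size of the genotype difference is poorly fixed.

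*Irf9*, the DNA-binding part of the complex at the ISRE, stood at 42.8 and 19.1 in cKO HDM, 18.9 and 3.87 in WT HDM, 9.76 and 20.3 in cKO PBS, and 26.8 and 20.9 in WT PBS. It was higher in both cKO HDM libraries than in both WT HDM libraries, by a narrow margin for 1 pair, and lower in both cKO PBS libraries than in both WT PBS libraries. Such separation held for 21.1% of tested genes in the higher direction under HDM and for 19.1% in the lower direction under PBS. In WT both HDM libraries were below both PBS libraries, as for 20.8%. The log2 differences were 1.59 ± 0.82 for cKO against WT under HDM (limma unadjusted p = 0.0713, adjusted p = 0.567) and -0.70 ± 0.82 under PBS (limma adjusted p = 0.878). The interaction was 2.30 ± 1.16 (limma unadjusted p = 0.0664, adjusted p = 0.67), and HDM against PBS stood at -1.33 ± 0.82 in WT and 0.97 ± 0.82 in cKO, without passing. Averages were -0.18 ± 0.58 for HDM and 0.44 ± 0.58 for genotype.

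The other tested antiviral effectors had averaged differences under 1 log2 unit. *Ifi35* stood at 45.7 and 34.9 in cKO HDM, 18.3 and 41.3 in WT HDM, 34.2 and 50.8 in cKO PBS, and 27.6 and 18.2 in WT PBS. Its groups overlapped under HDM, and under PBS both cKO libraries were above both WT libraries, as for 15.7% of tested genes. Genotype averaged over treatments gave 0.69 ± 0.39 (limma unadjusted p = 0.0965, adjusted p = 0.632) and HDM averaged over genotypes 0.11 ± 0.39. *Ifit1* stood at 23.2 and 7.48 in cKO HDM, 13 and 6.45 in WT HDM, 11.4 and 24.1 in cKO PBS, and 7.65 and 18.2 in WT PBS. No comparison separated its libraries, and its averages were -0.32 ± 0.65 for HDM and 0.47 ± 0.65 for genotype.

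*Oasl2* stood at 49.3 and 11.6 in cKO HDM, 20.9 and 30.9 in WT HDM, 22.8 and 30.5 in cKO PBS, and 26.0 and 34.6 in WT PBS. Its highest and lowest libraries were both cKO HDM. The averaged differences were -0.17 ± 0.47 for HDM, with a 95% interval of -1.17 to 0.82, and -0.12 ± 0.47 for genotype, with an interval of -1.12 to 0.87.

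The 3 members below a mean of 10 were read by their counts. *Isg15* had 0 and 7 reads in cKO HDM, 17 and 0 in WT HDM, and 0 in all 4 PBS libraries, which is 0 and 5.81 normalized counts in cKO HDM and 11.1 and 0 in WT HDM. Its 24 reads thus came from 2 HDM libraries, 1 of each genotype. *Ifit3* had 21 and 11 reads in cKO HDM, 12 and 0 in WT HDM, 0 and 15 in cKO PBS, and 0 and 5 in WT PBS. It was higher in cKO HDM replicate 1 and cKO PBS replicate 2 than in the other library of each group. The same held for its neighbour *Ifit1* and for *Igtp*.

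*Bst2* had 4 and 2 reads in cKO HDM, 14 and 11 in WT HDM, 0 and 1 in cKO PBS, and 2 and 4 in WT PBS. In normalized counts it stood at 2.90 and 1.66 in cKO HDM, 9.13 and 14.2 in WT HDM, 0 and 1.27 in cKO PBS, and 1.53 and 3.64 in WT PBS. Both WT HDM libraries were above the other 6, and these are the libraries with the highest leukocyte, endothelial and fibroblast sums, whose part was not tested. With 4 libraries against 4, an exact two-sided permutation test of the mean log2(value + 1) gave p = 0.143 for HDM against PBS and p = 0.0857 for cKO against WT in *Bst2*, with adjusted p = 0.429 for both over the 6 tests of these 3 genes. *Ifit3* gave exact p-values of 0.571 for HDM and 0.229 for genotype. The smallest p that 4 against 4 libraries allow is 0.0286, and no gene can reach it for both HDM and genotype. After adjustment over the 6 tests no value could therefore fall under 0.05, so the adjusted p-values decide nothing. *Isg15* was above 0 in only 2 libraries, too few for this test to pass, so no p is read for it.

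**Figure D4:**
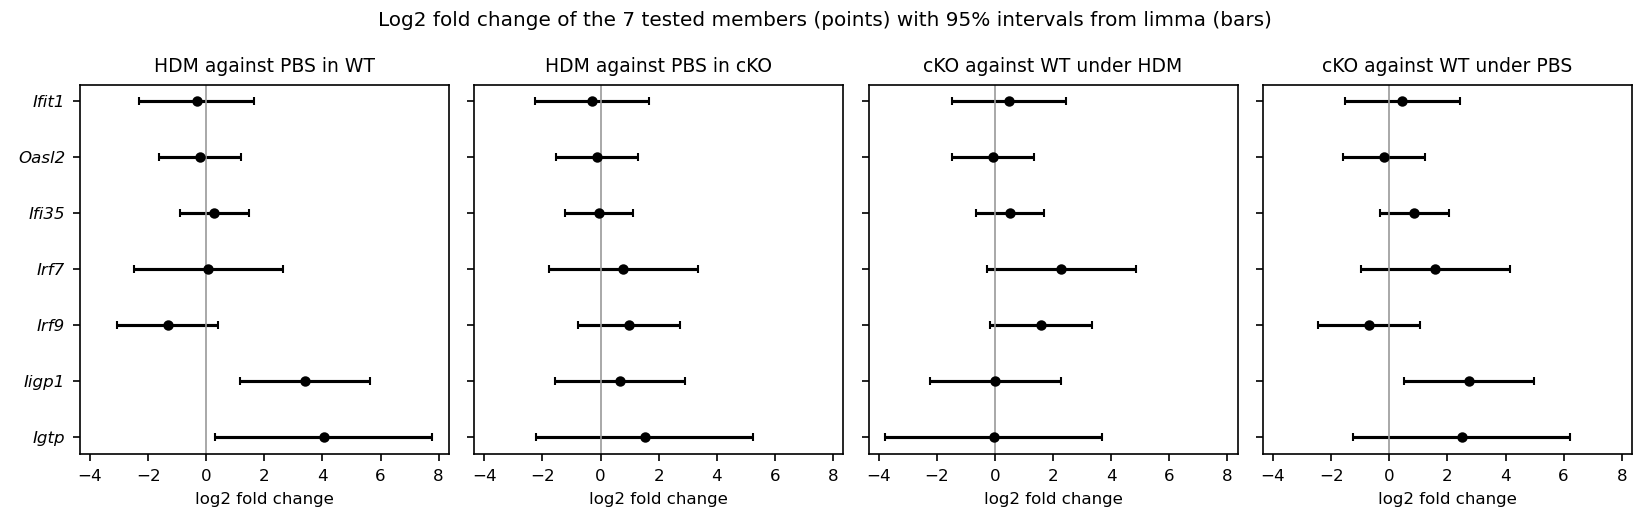
Log2 fold change (x axes) of the 7 tested genes in 4 comparisons, with points at the limma estimate and bars for the 95% interval. Intervals leave out 0 for Iigp1 and Igtp in HDM against PBS in WT and for Iigp1 in cKO against WT under PBS, without adjustment over the 7512 genes, and no gene passed after adjustment.

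Counted over the family, 0 of the 7 tested members passed in any of the 7 comparisons with limma. Genes passing over the whole table made up 0.519% in HDM against PBS in WT, 0.0532% in HDM against PBS in cKO, 0.572% in cKO against WT under HDM and 0% under PBS. They made up 0.0266% in the interaction, 0.399% in the HDM average and 0.120% in the genotype average. Against these shares, 0 of 7 does not set the members apart. At an unadjusted p under 0.05 limma gave 2 members in HDM against PBS in WT (*Iigp1* and *Igtp*, with 8.93% of all tested genes), 1 in cKO against WT under PBS (*Iigp1*, with 6.96%), 2 in the HDM average (with 8.45%) and 1 in the genotype average (*Irf7*, with 8.41%). It gave 0 in HDM against PBS in cKO (7.77% of all), in cKO against WT under HDM (9.60%) and in the interaction (7.77%). *Igtp* and *Irf7* reached testing through the groups where they were high, which partly builds in their positive values. edgeR passed 0 members and DESeq2 passed *Igtp* in HDM against PBS in WT, where DESeq2 passed 134 of all 7512 tested genes and limma 39. Among all tested genes, 21.9% were lower without overlap in cKO than in WT under HDM and 1.98% over both treatments, and 0 of the 7 members were.

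The median log2 difference of the 7 members was 0.07 for HDM against PBS in WT and 0.66 in cKO, against -0.03 and 0.10 over all tested genes. It was 0.49 for cKO against WT under HDM and 0.87 under PBS, against 0.02 and -0.09, and 0.69 for the genotype average, against -0.04, with 6 of 7 members positive and *Oasl2* negative. Leaving out 1 library at a time moved the median to between -0.43 and 0.24 for HDM in WT and -0.34 and 1.13 for HDM in cKO. The ranges were -0.27 to 1.03 for genotype under HDM, 0.0 to 1.15 under PBS and 0.21 to 0.98 for the genotype average. Of these 5 ranges only the last lay wholly above 0. No such refit leaves out both cKO HDM replicate 1 and cKO PBS replicate 2, where members were high together. The mean standardized log2 level of the 7 members was 1.15 and 0.80 there, against -0.78 to -0.11 in the other libraries. The members are thus not separate evidence, and the median is not read as a genotype response. HDM against PBS in WT and cKO against WT under PBS share the WT PBS libraries, so these comparisons are not independent.

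The remainder of the pathway was read from 8 lists of 135 symbols, 131 of them in the table and 49 tested. With limma 0 of the 49 passed in any comparison, and with edgeR 0 passed. DESeq2 passed 1 in HDM against PBS in WT (*Gbp2*), 1 in cKO (*Ube2l6*), 2 in the HDM average (*Gbp2* and *Slfn5*) and 0 in the other comparisons. Over all 7512 tested genes DESeq2 passed 134, 28 and 106 in the same order, where limma passed 39, 4 and 30. At an unadjusted p under 0.05 limma gave 7 of 49 in HDM against PBS in WT (8.93% of all tested genes), 4 in cKO (7.77%), 4 in cKO against WT under HDM (9.60%) and 1 under PBS (6.96%). It gave 2 in the interaction (7.77%), 8 in the HDM average (8.45%) and 2 in the genotype average (8.41%), and several of these counts are near the share over all genes. The ligands were not seen: all 19 interferon genes listed, among them *Ifnb1*, *Ifng*, *Ifnl2* and *Ifnl3*, had 0 reads in every library, which allows up to 1.96 to 4.88 normalized counts per gene and library. Of the 3 interferon-induced chemokines, *Cxcl9* and *Cxcl11* had 0 reads and *Cxcl10* averaged 0.872 normalized counts.

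Receptors were all expressed, and 6 of 6 were tested. *Ifnlr1*, the receptor chain specific to type III interferon and typical of epithelium, stood at 26.1 and 31.6 in cKO HDM, 3.26 and 18.0 in WT HDM, 40.7 and 21.6 in cKO PBS, and 7.65 and 8.18 in WT PBS. As with *Irf7*, all 4 cKO libraries were above all 4 WT libraries. This held for 1.78% of all tested genes and, in the wider lists, for 1 of 49. Its means were 28.8 in cKO HDM and 31.1 in cKO PBS. In WT they were 10.7 under HDM and 7.92 under PBS, near the mean of 10 required for testing. As with *Irf7*, a positive cKO value is thus partly built in by that requirement. The genotype average was 1.75 ± 0.59 (limma unadjusted p = 0.00972, adjusted p = 0.425), with 1.72 ± 0.84 under HDM and 1.78 ± 0.84 under PBS. *Ifnar1*, a chain of the type I receptor, gave -0.65 ± 0.51 for HDM averaged over genotypes, and *Ifngr2*, a chain of the interferon gamma receptor, -2.54 ± 1.08 for cKO against WT under HDM (limma adjusted p = 0.461).

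Among the tested JAK, STAT and IRF genes, 6 of 8 were higher in both WT HDM libraries than in both WT PBS libraries, as were 21.2% of all tested genes, and these are the WT HDM libraries with the high leukocyte, endothelial and fibroblast sums, whose part was not tested. In cKO, 0 of 8 were higher without overlap, against 19.0% of all, and 1 was lower, against 16.7%. Over both genotypes 6 of 8 had a positive HDM average, with a median of 0.52 against 0.04 over all tested genes. *Stat2*, a subunit of the complex at the ISRE, stood at 39.9 and 8.31 in cKO HDM, 30.7 and 11.6 in WT HDM, 19.5 and 12.7 in cKO PBS, and 8.42 and 10.003 in WT PBS. Its groups overlapped within cKO and between genotypes under HDM, and not within WT or between genotypes under PBS, and its HDM average of 0.60 ± 0.62 did not pass with limma (adjusted p = 0.818).

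Of the enzymes that attach and remove ISG15, *Ube2l6*, the conjugating enzyme, stood at 34.1 and 21.6 in cKO HDM, 10.4 and 12.9 in WT HDM, 0 in both cKO PBS libraries, and 6.89 and 19.1 in WT PBS. Against a floor of 3 reads per cKO PBS library its mean in cKO HDM was 6.41-fold higher, with the same limit as for *Igtp*. The log2 difference of *Ube2l6* there was 4.82 ± 1.21 (limma unadjusted p = 0.00114, adjusted p = 0.259), and 4.50 to 5.13 with 1 library left out. It passed with DESeq2 (adjusted p = 0.0421). cKO against WT under PBS stood at -3.65 ± 1.21 (limma adjusted p = 0.667) and the interaction at 4.81 ± 1.70 (limma adjusted p = 0.547). *Usp18*, the ISG15 protease and a brake on type I signalling, was at 16.3 to 63.1 normalized counts with an HDM average of 0.52 ± 0.38.

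Of the further interferon-stimulated genes, *Slfn5*, a Schlafen family protein, stood at 9.43 and 14.1 in cKO HDM, 35.9 and 43.8 in WT HDM, 0 in both cKO PBS libraries, and 8.42 and 0.909 in WT PBS. All 4 HDM libraries were above all 4 PBS libraries, as for 2.26% of all tested genes and 2 of the 49 listed. *Slfn5* reached the mean required for testing through its HDM libraries, its means under PBS being 0 in cKO and 4.66 in WT. It was highest in WT HDM, as were the leukocyte, endothelial and fibroblast markers, whose part was not tested. The HDM average was 3.46 ± 1.00 (limma unadjusted p = 0.00345, adjusted p = 0.249), with 3.26 ± 1.41 in WT and 3.65 ± 1.41 in cKO. This average passed with DESeq2 (adjusted p = 0.00656) and was 2.88 to 4.03 with 1 library left out. *Ifitm3*, which blocks virus entry, and *Samhd1*, a nucleotide hydrolase, stood at 1.35 ± 0.53 and 1.79 ± 0.68 for HDM against PBS in WT (limma adjusted p = 0.442 and 0.414). *Samhd1* stood at 81.2 normalized counts in WT HDM replicate 2, the library with a leukocyte sum of 433, against 9.09 to 35.6 in the other 7, and *Ifitm3* was highest in both WT HDM libraries, where the endothelial and fibroblast sums were also highest. The part of these markers was not tested. *Trim25*, a ubiquitin ligase of RNA sensing, gave -0.88 ± 0.30 for the genotype average (limma adjusted p = 0.427). *Mavs*, the adaptor of the RNA sensors, gave 2.61 ± 1.09 for HDM against PBS in cKO (limma adjusted p = 0.573). It had 0 reads in cKO PBS replicate 1, without which the value was 0.45, and the value was 4.77 without cKO PBS replicate 2.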

How the data were processed

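Per the file headers and labels, the deposited table gives a signal value per gene symbol and library, a normalized count. HOMER, DESeq2 and mm10 are named in the submitters' processing notes; the sources used here name no aligner, annotation, version or strand setting. Every value was a whole multiple of the value of 1 read in its library (100% within 0.01 reads), so whole reads were recovered.

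Log2(value + 1) of the 7512 genes with a mean of at least 10 over the 8 libraries was fitted with 1 mean per group (limma 3.58.1, R 4.3.3, eBayes with a trend, two-sided). P-values were adjusted by Benjamini-Hochberg over all 7512, with 0.05 as the threshold. Fold changes understate low genes. Errors on log2 differences are standard errors. As alternatives, edgeR 4.0.16 (quasi-likelihood) and DESeq2 1.42.0 were run on these reads. The fit was tested on simulated data. The members, lists and tests were chosen with earlier results of these data known. All members are named; of each wider list, genes that passed or were among the 2 with the smallest p in a comparison were eligible, and *Stat2* and *Ifnar1* were followed. A further gene of these lists is not reported here. Promoter sequences are RefSeq's (GRCm38.p6).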

Additional observations from a re-analysis of the deposited data

How the results depend on the processing

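Of 962 refits of 60 named log2 differences, 917 kept their direction and side of the threshold, 12 newly passed, some with 1 library left in a group, and 33 changed sign. In many refits the difference could not move, because the library left out was in neither group compared. None of the 60 passed in the main fit, so the 917 is not a measure of robustness. The count of members that passed was 0 in every comparison and alternative run except DESeq2, which passed 1 (*Igtp*, HDM against PBS in WT). *Igtp* in cKO against WT under HDM was 0.025 with a pseudocount of 5, 0.35 with edgeR and 0.31 with DESeq2. *Irf7* in the interaction was -0.11 under quantile normalization. *Irf9* in the HDM average was 0.020 (edgeR) and 0.0082 (DESeq2), and *Oasl2* in the genotype average 0.044 and 0.035; the cause was not tested. Leaving out 1 library at a time gave -0.55 to 1.88 for *Iigp1* and -0.97 to 4.0 for *Igtp* (HDM in cKO), -0.27 to 0.30 and -1.11 to 1.03 (genotype under HDM), and -0.021 to 2.47 for *Igtp* in the genotype average. *Irf7* ranged from -1.0 to 1.15 (HDM in WT), -0.37 to 1.78 (interaction) and -0.11 to 0.96 (HDM average), and *Irf9* from -0.69 to 0.33 (HDM average) and -0.064 to 0.95 (genotype average). For the HDM average, *Ifi35* ranged from -0.17 to 0.40, *Ifit1* from -0.70 to 0.062 and *Oasl2* from -0.67 to 0.32, with *Oasl2* at -0.62 to 0.37 for genotype. *Irgm2* (HDM in cKO) ranged from -0.20 to 1.95. A lone library left in a group was assumed to vary like the others.

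Replicate numbers did not pair the libraries (same-numbered deviations correlated at -0.016 to 0.018), and the fit with the replicate number as a block also passed 0 members in each comparison. Over all genes, alternatives that kept all libraries gave 14 to 134 calls in place of 39 (HDM in WT), 0 to 28 in place of 4 (HDM in cKO), 9 to 126 in place of 43 (genotype under HDM), 0 in place of 0 (under PBS), 0 to 27 in place of 2 (interaction), 13 to 106 in place of 30 (HDM average) and 1 to 67 in place of 9 (genotype average). Leaving out 1 library gave, in the same order, 3 to 110, 0 to 320, 3 to 117, 0 to 315, 0 to 115, 10 to 193 and 1 to 181. With a minimum mean of 50, no member was left to test. Depth limits the low members most: *Isg15* rests on 24 reads and *Bst2* on 38.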
